A study of Mus musculus with 17 samples.

Results

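B and T lymphocyte markers are here 10 genes: the B cell genes Cd79b, Ms4a1, Cd22 and Cr2, and the T cell genes Cd3d, Cd3e, Cd3g, Cd4, Lck and Cd2. They were chosen by name, and every probe whose RefSeq transcript belongs to 1 of them was taken, which gave 13 of the 55681 probes on the array. All 10 genes had a probe that passed the filter on dim signals and entered a test over 21380 genes; the second probes of Cr2, Cd4 and Cd2 did not pass it. The values are log2 ratios of Cy5, the forestomach RNA of 1 animal per array, over Cy3, a reference RNA pooled from 11 mouse cell lines, so a value of 0 means a signal equal to that of the cell lines.

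The animals were male MutaTMMouse, a transgenic strain used for mutation assays, aged 24 to 26 weeks, and all of them received olive oil by gavage every day for 28 days. The groups were olive oil alone (control, 5 arrays) and olive oil carrying 25, 50 or 75 mg/kg of benzo(a)pyrene (BaP, a product of incomplete combustion) in the daily gavage (4 arrays each). The forestomach, the squamous-lined part of the rodent stomach, was taken 72 hours after the last dose. RNA came from random sections of the whole organ wall, so the RNA of any lymphoid tissue or neighbouring tissue in a section was measured with that of the epithelium, and fewer lymphocytes and less RNA per lymphocyte cannot be told apart.

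B lymphocytes recognise antigen through a surface immunoglobulin that signals through the CD79 chains, and T lymphocytes recognise it through a receptor that signals through the CD3 chains. In both, the signal passes to tyrosine kinases and is tuned by coreceptors. A squamous wall such as that of the forestomach normally holds few lymphocytes, while spleen, lymph nodes and mucosal follicles are dense in them.

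Per array, 39.9% to 50.7% of probes cleared the background in Cy5 by the scanner's own criterion, called well above background here. The arrays lay on 3 slides, and every slide held arrays of all 4 groups. One array, control replicate 2, stood apart from the other 16 on the marker genes, and 50 mg/kg replicate 13 stood apart in the same direction by less. Each result that rests on them is therefore given with and without them. Of the 10 markers, 8 were highest on control replicate 2, and 6 of these exceeded every other array by at least 1 on the log2 scale. Over all genes measured on every array, 12% were highest on that array and 1.36% (290 genes) exceeded every other array by at least 1. The other 16 arrays had 0 to 57 genes that stood out by as much, and none of the markers was among those.

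The promoters of 3 markers are shown because their values part ways below: Cr2 and Cd3d were among the genes raised on control replicate 2, while Cd3e, a neighbour of Cd3d on chromosome 9, was not. The promoter of Cr2 was added after its values were seen. The sequences are RefSeq's for GRCm38.p6, from 250 bases before to 50 after the start of the gene, written 5′ to 3′ on the gene's strand; the array was designed on an older build. Capitals mark each ETS core, the letters GGAA or, on the other strand, TTCC, which ETS family factors of lymphocytes such as ETS1 and PU.1 recognise.
Cr2 (chr1:195176670-195176969, minus strand): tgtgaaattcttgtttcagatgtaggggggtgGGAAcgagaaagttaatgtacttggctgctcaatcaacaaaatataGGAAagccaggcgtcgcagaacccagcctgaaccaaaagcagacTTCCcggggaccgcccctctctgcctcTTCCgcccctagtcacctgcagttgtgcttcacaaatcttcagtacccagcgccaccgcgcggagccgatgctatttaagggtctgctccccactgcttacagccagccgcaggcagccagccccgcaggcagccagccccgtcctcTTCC
Cd3d (chr9:44981536-44981835, plus strand): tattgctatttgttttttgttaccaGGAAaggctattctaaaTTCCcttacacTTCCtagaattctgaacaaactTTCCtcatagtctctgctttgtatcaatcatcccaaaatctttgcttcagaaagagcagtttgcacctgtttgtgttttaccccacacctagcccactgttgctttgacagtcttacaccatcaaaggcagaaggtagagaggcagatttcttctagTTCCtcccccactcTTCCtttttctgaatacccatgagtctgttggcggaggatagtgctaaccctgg
Cd3e (chr9:45009562-45009861, minus strand): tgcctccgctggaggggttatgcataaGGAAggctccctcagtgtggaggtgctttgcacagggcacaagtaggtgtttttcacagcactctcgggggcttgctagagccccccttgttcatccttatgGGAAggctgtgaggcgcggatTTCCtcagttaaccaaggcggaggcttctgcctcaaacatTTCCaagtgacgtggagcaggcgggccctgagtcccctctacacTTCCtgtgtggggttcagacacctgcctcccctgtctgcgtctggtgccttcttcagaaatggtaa
The table of promoters held Cd22, Cr2, Cd3d, Cd3e, Cd3g and Lck (with 2 starts), and Cd79b, Ms4a1, Cd4 and Cd2 are named only. The motifs searched, on both strands, were the octamer ATGCAAAT, bound by OCT factors in B cells, the E box CANNTG, and the ETS core GGAA. Cr2 held 3 E boxes and 5 ETS cores, Cd3d held 1 and 6, and Cd3e held 2 and 5. None of the windows of these 6 genes held the octamer, which 1.74% of the 32851 promoters in the table held. An E box was in 72.3% of all promoters and an ETS core in 96%.

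Cd79b, the signalling chain of the B cell receptor, had one of the widest spreads between control animals of any gene tested. Its log2 ratio was -3.59, 2.10, -3.25, -2.62 and -4.08 in controls 1 to 5. It was -3.80, -3.52, -3.61 and -3.82 at 25 mg/kg, -3.62, -0.82, -3.19 and -3.58 at 50 mg/kg, and -3.66, -3.60, -3.36 and -4.30 at 75 mg/kg. Control replicate 2 was the single array with more Cd79b signal from forestomach than from the cell lines, and 50 mg/kg replicate 13 came next; all others lay between -4.30 and -2.62 and the groups overlapped. Control replicate 2 exceeded the mean of the other 4 controls by 5.48, a 44.7-fold difference. Its Cy5 spot signal was 4402 there, against 100 to 120 on the other control arrays over a local background of 63 to 66.

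Ms4a1, which encodes the B cell surface protein CD20, followed the same order at the top. It was -2.48, 2.13, -2.11, -1.93 and -3.46 in controls 1 to 5, -3.35, -2.76, -3.04 and -3.25 at 25 mg/kg, -2.90, -0.43, -2.10 and -3.22 at 50 mg/kg, and -2.80, -3.05, -2.74 and -3.69 at 75 mg/kg. Control replicate 2 exceeded the mean of the other 4 controls by 4.63 (24.7-fold, with 2 of those 4 arrays well above background). The probe cleared background on 3 of 5 control arrays, 0 of 4 at 25 mg/kg, 3 of 4 at 50 mg/kg and 0 of 4 at 75 mg/kg. As a difference of Cy5 group means, Ms4a1 signal was 2.58-fold lower at 75 mg/kg than in control with all arrays. It was 1.38-fold lower without control replicate 2. Neither is a strict bound, because control arrays not well above background entered the means. In those 4 controls the Cy5 spot signals were 73 to 93, overlapping the 75 to 91 at 75 mg/kg. Bounds from Cy5 alone, here and below, are also open to dye bias. Neither difference passed the test of the log2 ratio given further on.

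Cr2, which encodes the complement receptors CD21 and CD35 of mature B cells and follicular dendritic cells, was high on 2 arrays and near 0 on the others. It was 0.27, 5.17, -0.22, 0.13 and -0.02 in controls 1 to 5, 0.16, -0.22, 0.09 and 0.06 at 25 mg/kg, -0.26, 2.43, 0.02 and 0.60 at 50 mg/kg, and 0.18, -0.01, 0.14 and 0.06 at 75 mg/kg. Outside the 2 arrays that stood apart, every value lay between -0.26 and 0.60, where the probe was at or near background on many arrays. It was well above background on 11 of 17 arrays. The dimmer Cr2 probe, below the filter, was 2.59 on control replicate 2, while the other 16 arrays lay between -0.26 and 0.50, so both Cr2 probes singled out the same array.

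Cd22, an inhibitory coreceptor of the B cell receptor, did not follow the other B cell genes. Its values ran from 0.15 to 0.64 in control, 0.06 to 0.56 at 25 mg/kg, 0.01 to 0.73 at 50 mg/kg and -0.27 to 0.57 at 75 mg/kg. Control replicate 2 had 0.45, in the middle of its group, on a probe that was well above background on all 17 arrays. The Cy5 signal of this probe was 111 to 235 over a background of 61 to 74.

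Among the T cell genes, Cd2, an adhesion receptor of T and NK cells, separated the arrays most. It was -0.38, 3.1, -0.52, -0.24 and -0.22 in controls 1 to 5, -0.15, -0.26, 0.10 and 0.04 at 25 mg/kg, -0.09, 1.29, 0.24 and 0.27 at 50 mg/kg, and 0.83, 0.80, 0.07 and 0.86 at 75 mg/kg. Apart from control replicate 2, the 4 controls were all below every array at 75 mg/kg, as they were for 3.38% of all genes. They were also below every array at 50 mg/kg, where the share of all genes was not counted. The probe cleared background on 1 of 5 control arrays, which was replicate 2, and on 3, 4 and 4 of 4 arrays at 25, 50 and 75 mg/kg. The second Cd2 probe, below the filter, was 1.38 on control replicate 2, and the other 16 arrays lay between -0.09 and 0.42.

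Cd3d, the delta chain of CD3, was also highest on control replicate 2, but 50 mg/kg replicate 13 ranked below 3 of the 75 mg/kg arrays. It was -0.11, 2.23, -0.10, 0.05 and -0.40 in controls 1 to 5, 0.05, -0.18, 0.39 and 0.17 at 25 mg/kg, 0.40, 0.67, 0.17 and 0.12 at 50 mg/kg, and 0.78, 0.71, -0.08 and 0.71 at 75 mg/kg. Of the 75 mg/kg arrays, replicate 19 lay with the controls and the other 3 lay above every control but replicate 2. The probe cleared background on 1 of 5 control arrays (again replicate 2) and on 3, 4 and 3 of 4 arrays at 25, 50 and 75 mg/kg.

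Lck, the kinase that starts signalling from the T cell receptor, and Cd3g, the gamma chain of CD3, were also highest on control replicate 2. Lck was -2.56, -0.55, -2.14, -2.12 and -2.94 in controls 1 to 5, -2.80, -2.86, -2.52 and -2.61 at 25 mg/kg, -2.40, -1.55, -1.99 and -2.66 at 50 mg/kg, and -1.71, -1.77, -2.17 and -2.18 at 75 mg/kg. Cd3g was -1.96, -0.80, -1.75, -1.75 and -2.31 in controls 1 to 5, -2.17, -2.07, -1.90 and -1.99 at 25 mg/kg, -1.49, -1.50, -1.39 and -2.13 at 50 mg/kg, and -1.58, -1.29, -1.73 and -1.56 at 75 mg/kg. Control replicate 2 exceeded the mean of the other 4 controls by 1.89 for Lck and by 1.14 for Cd3g, less than for Cd79b, Ms4a1 and Cr2 and more than for Cd22, at 0.07. The Cd3g probe cleared background on 2 of 5 control arrays and on 3, 4 and 4 of 4 arrays at 25, 50 and 75 mg/kg.

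Cd3e, the epsilon chain of CD3, and Cd4, the coreceptor of helper T cells that macrophages and dendritic cells can also carry, did not set control replicate 2 apart. Cd3e was highest there at 0.01, with control replicate 4 at 0.00, and the 17 arrays ran from -1.21 to 0.01. Cd4 was 1.18 there, within a control range of 0.58 to 1.43. The Cy3 signal of that Cd4 probe varied by 1.53 between arrays on the log2 scale, against 0.23 to 0.63 for the main probes of the other 9 markers, so its ratio also moves with the reference channel. The Cd3e and Cd4 probes had Cy5 signals of 402 to 839 and 510 to 1454, well above those of Cd3d and Cd3g in the same RNA, which were 78 to 299 and 72 to 173; levels of different probes cannot be compared, and which transcripts each probe reads was not tested. The second Cd4 probe, below the filter, lay between -0.04 and 0.40 on all arrays.

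**Figure D1:**
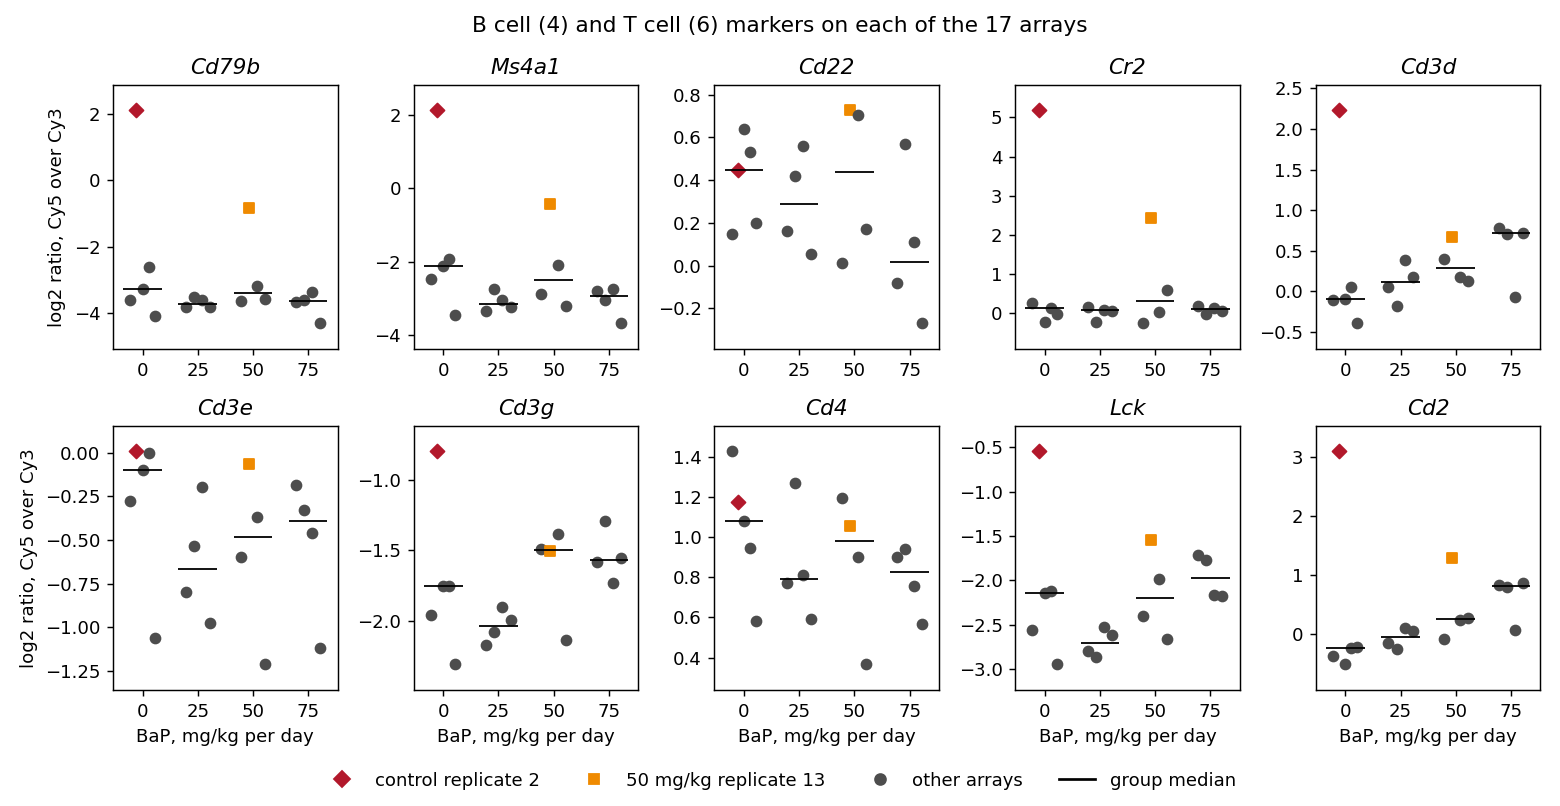
Log2 ratio of Cy5 over Cy3 for each marker (y axis, its own scale per panel) on each array, by dose of BaP (x axis, control at 0); the lines are group medians. Control replicate 2 (diamond) was the highest array for 8 of 10 markers, at 2.10 for Cd79b and 5.17 for Cr2, and 50 mg/kg replicate 13 (square) was at -0.82 and 2.43.

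The raised signal on control replicate 2 lay in the forestomach channel. The Cy3 signal of that array differed from the median of the other arrays by -0.02 for Cd79b, -0.20 for Ms4a1, -0.23 for Cr2, -0.10 for Cd3d, -0.06 for Cd3g, 0.06 for Lck and 0.19 for Cd2 on the log2 scale. Within the control group the standard deviation of Cd79b was 2.51, which 0.014% of genes exceeded, and that of Cr2 was 2.30, which 0.0421% exceeded. Without control replicate 2 the same figures were 0.61 and 2.94% for Cd79b, and 0.21 and 40.5% for Cr2. The median gene had a standard deviation of 0.20 over the 5 controls and 0.18 over the 4.

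Other genes moved with the markers on this array. Of 11 pan-leukocyte genes tested (12 listed), 11 were highest on control replicate 2, and its median deviation from the median of the other 16 arrays was 2.11; Ptprc, the CD45 gene carried by all leukocytes, deviated by 2.13. Of 10 lymphoid tissue genes tested, 7 were highest there with a median of 2.26, among them Cxcl13, the chemokine that draws B cells into follicles, at 4.35, and Ccr7, the receptor that guides lymphocytes to lymph nodes, at 3.30. Of 6 other B cell genes 5 were highest there (median 1.33), of 9 plasma cell genes 5 (median 0.89), and of 11 other T cell genes 8 (median 0.64). None of the 6 genes for regulatory and activated T cells was highest there (median -0.09), nor was any of the 7 smooth muscle genes (median 0.05), and 1 of 10 squamous epithelium genes was (median -0.22). The median gene of the whole array deviated by -0.01.

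Genes of cells that are not lymphocytes were raised on the same array. Lists of erythroid precursor genes and of genes of splenic red pulp macrophages and sinus cells were written after control replicate 2 had been seen to stand apart, so they describe that array and support nothing. Of 12 erythroid genes tested, 10 were highest on control replicate 2, with a median deviation of 3.17. Car2 and Ermap were not highest on that array and deviated by 0.22 and 0.25. Slc4a1, the anion exchanger of the red cell membrane, was 5.71 there, while the other 16 arrays lay between 0.04 and 1.81. Tal1, a transcription factor of blood precursors, was 3.23 there, while the others lay between -0.83 and -0.32. Alas2, the erythroid enzyme of haem synthesis, was 5.00 on control replicate 2 and 3.78 on 50 mg/kg replicate 13.

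Of 11 red pulp and sinus genes tested, 8 were highest on control replicate 2, with a median deviation of 0.89. Cd209b, Axl and Hmox1 were not highest on that array and deviated by -0.05, 0.21 and 0.47. Marco, a scavenger receptor of marginal zone macrophages, was 5.08 there and 2.45 on 50 mg/kg replicate 13, and no other array exceeded that. Stab2, a receptor of sinus endothelium, was 3.76 and 1.28 on these arrays, and Slc40a1, the iron exporter ferroportin, was 4.29 and 1.88. The summed linear ratio of the erythroid list was 205 on control replicate 2, against 43.9 to 64.2 on the other controls, and it was 51.4 to 70.6, 47.9 to 70.9 and 40.9 to 69.3 at 25, 50 and 75 mg/kg. That of the red pulp list was 94.8 on control replicate 2, against 12.8 to 14.0 on the other controls, and it was 12.5 to 14.7, 13.9 to 23.9 and 13.3 to 15.2 at 25, 50 and 75 mg/kg, with 50 mg/kg replicate 13 the highest of these. Their part in the marker values was not tested.

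On 50 mg/kg replicate 13 the markers deviated by a median of 0.64 from the other 16 arrays, the pan-leukocyte genes by 0.65 and the lymphoid tissue genes by 0.48. Of the 10 markers, 6 were either highest there or second only to control replicate 2. Adipocyte genes were low on both arrays, by a median of -1.86 on control replicate 2 and -1.95 on 50 mg/kg replicate 13, and squamous epithelium genes by -0.22 and -0.19. Low adipocyte signal was not particular to them: Adipoq, the adipocyte hormone gene, was 0.09 and 0.05 there, and it was 0.13 on 25 mg/kg replicate 7, -0.10 on 50 mg/kg replicate 12, and -0.14 and -0.16 on 75 mg/kg replicates 17 and 18. Haemoglobin and other red blood cell genes, of which 2 of 5 were tested, were higher by 2.39 and 1.44 on these arrays.

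**Figure D2:**
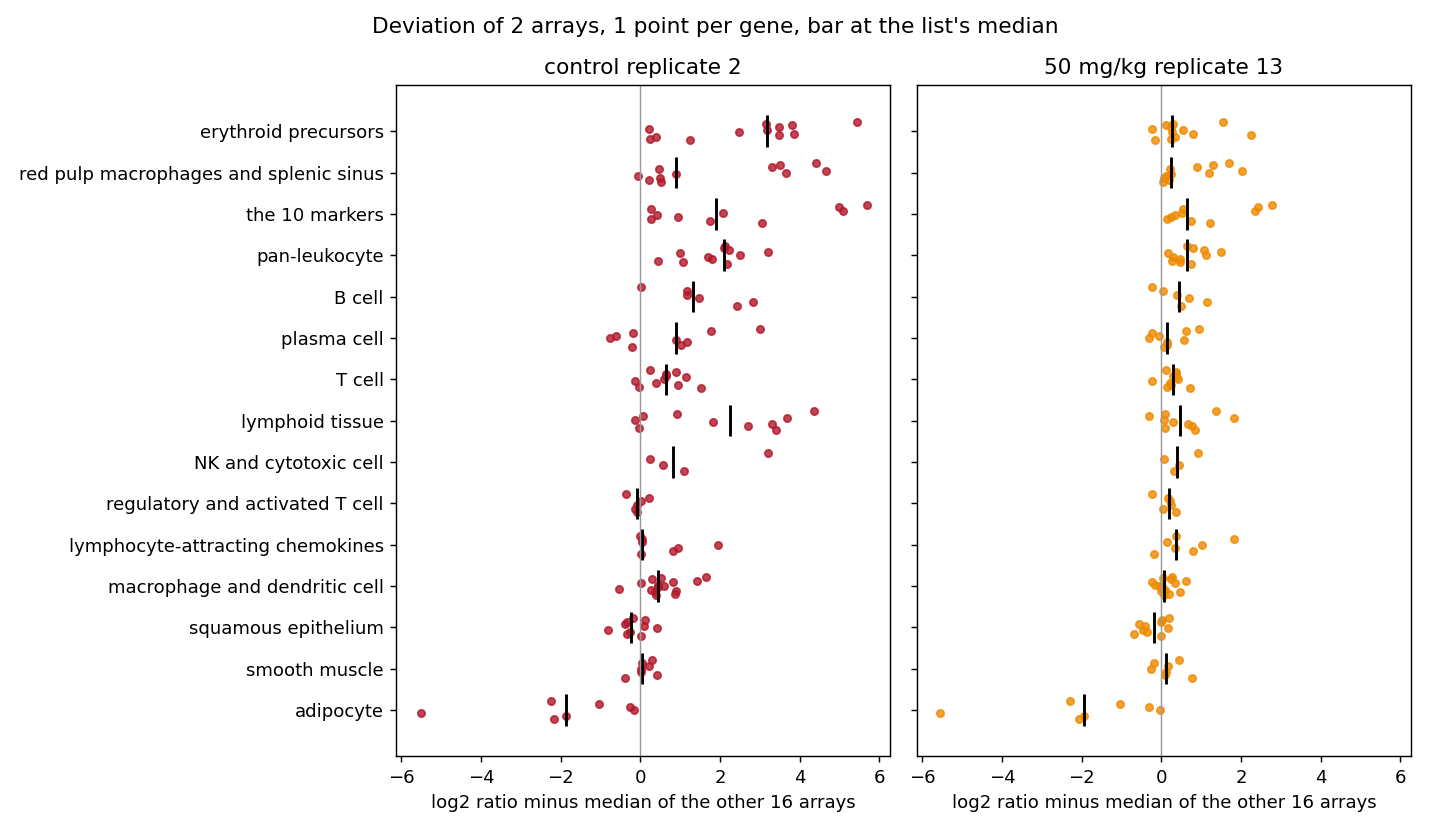
Deviation of control replicate 2 (left) and 50 mg/kg replicate 13 (right) from the median of the other 16 arrays, in log2 units (x axis), for the genes of each list (rows); points are genes and bars are list medians. The medians on control replicate 2 run from 3.17 for erythroid precursors and 2.26 for lymphoid tissue genes to -1.86 for adipocyte genes, and the top 2 lists were written after the data were seen.

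With all 17 arrays, none of the 10 markers passed the test between 25, 50 or 75 mg/kg and control, nor along the dose trend, by limma with Benjamini-Hochberg adjustment over all genes. The lowest adjusted p of any marker was 0.999, 0.877, 0.564 and 0.631 in these comparisons, and no marker had an unadjusted p under 0.05 in any of them. Over all genes 0.014%, 0.0468%, 1.1% and 1.35% were called, so a count of 0 in 10 is near the background. The changes at 75 mg/kg were negative for all 4 B cell markers, with a median of -1.21, and positive for 4 of 6 T cell markers, with a median of 0.14, while the median over all genes was -0.01.

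The standard errors show how much 1 array weighs. Cd79b changed by -1.44 ± 0.92 (standard error) at 75 mg/kg, Ms4a1 by -1.50 ± 0.81 and Cr2 by -0.97 ± 0.84, none past the threshold. Without control replicate 2 the same values were -0.35 ± 0.47, -0.57 ± 0.47 and 0.05 ± 0.39, so the B cell differences shrank towards 0 and that of Cr2 changed sign. Cd22 was -0.31 ± 0.18 with that array and -0.30 ± 0.20 without it (adjusted p = 0.619 and 0.696). None of the 4 B cell genes passed in any comparison without control replicate 2, where the lowest adjusted p of the 4 was 0.696 at 75 mg/kg and 0.714 in the trend.

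The changes of all 6 T cell genes shifted upwards as well when control replicate 2 was left out, most for Cd2 and Cd3d. Cd2 averaged 0.64 ± 0.38 at 75 mg/kg (SD, n = 4), against 0.35 ± 1.55 in control (n = 5) and -0.34 ± 0.14 in the 4 other controls. Its change at 75 mg/kg was 0.29 ± 0.55 with all arrays and 0.98 ± 0.24 without control replicate 2, where limma's adjusted p was 0.0544, short of the threshold. Along the dose trend Cd2 then rose by 0.34 ± 0.07 per 25 mg/kg (adjusted p = 0.0124), against 0.12 ± 0.17 with all arrays (adjusted p = 0.848). In those 4 controls the Cd2 probe was not well above background. As a bound in Cy5, Cd2 signal was at least 1.70-fold higher at 50 mg/kg and at least 1.90-fold higher at 75 mg/kg than there. The bound at 50 mg/kg includes replicate 13, and none was taken without it. The log2 change of Cd2 at 50 mg/kg was 0.77 ± 0.24 without control replicate 2 (limma, adjusted p = 0.371). It was 0.48 ± 0.18 without control replicate 2 and 50 mg/kg replicate 13 (limma, adjusted p = 0.497).

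Cd3d was the other marker called along the trend without control replicate 2. It averaged 0.53 ± 0.41 at 75 mg/kg (SD, n = 4), against 0.33 ± 1.07 in control (n = 5) and -0.14 ± 0.19 in the 4 other controls. It rose by 0.22 ± 0.05 per 25 mg/kg in the trend (adjusted p = 0.0396), against 0.07 ± 0.12 with all arrays (adjusted p = 0.869). With arrays also centred on their medians, neither trend passed (0.28 ± 0.07, adjusted p = 0.0718 for Cd2, and 0.21 ± 0.05, adjusted p = 0.094 for Cd3d). At 75 mg/kg the change of Cd3d was 0.67 ± 0.18 (adjusted p = 0.108 by limma). As a difference of Cy5 group means, its signal was 1.43-fold higher there than in the 4 other controls. That is not a strict bound, because only 3 of 4 arrays at 75 mg/kg were well above background. Cd3g and Lck were 0.40 ± 0.16 and 0.48 ± 0.22 at 75 mg/kg without that array (adjusted p = 0.379 and 0.472), and their trends had an adjusted p of 0.165 and 0.264. Cd3e and Cd4 were -0.16 ± 0.28 and -0.22 ± 0.20, with estimates below 0.

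Without control replicate 2, the share of all genes called was 0.00468% at 25 mg/kg, 0.131% at 50 mg/kg, 1.35% at 75 mg/kg and 1.88% in the trend, beside 0, 0, 0 and 2 of the 10 markers. All 4 arrays at 75 mg/kg then lay above all 4 remaining controls for Cd3g and Cd2, which 3.38% of genes did. At 50 mg/kg this held for Cd3d and Cd2, and the share of all genes was not counted there. When 50 mg/kg replicate 13 was left out as well, Cd2 passed at 75 mg/kg too (0.98 ± 0.16, adjusted p = 0.00485), and the trends of Cd2 and Cd3d had an adjusted p of 0.00173 and 0.0464. Within slides, and without control replicate 2, Cd2 was higher at 75 mg/kg than in control by 1.21, 0.81 and 1.08 on slides 1, 2 and 3, and Cd3d by 0.89, 0.34 and 1.11. On slide 1 this sets only 75 mg/kg replicate 17 against control replicate 1. On slide 3 it sets only replicate 20 against control replicate 5. On slide 1, which held control replicate 2, the differences with that array were -0.53 for Cd2 and -0.28 for Cd3d. The choice to set these arrays aside was made after their values were seen.

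**Figure D3:**
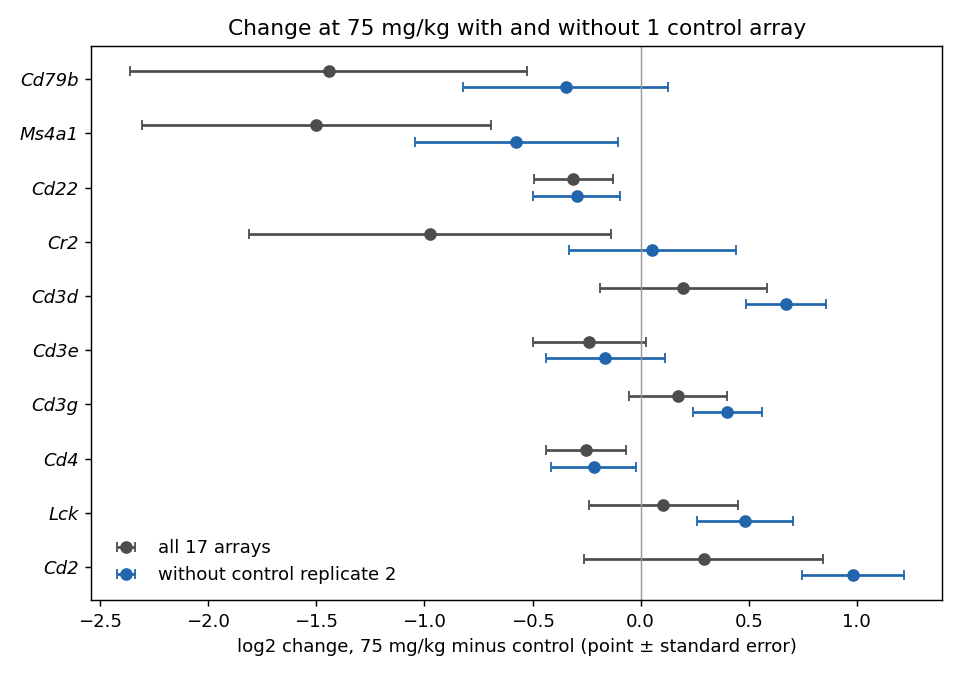
Change of each marker at 75 mg/kg minus control, in log2 units (x axis; points with standard errors), with all 17 arrays and without control replicate 2. Cd79b is -1.44 with and -0.35 without that array, while Cd2 is 0.29 with and 0.98 without it.

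The log2 ratios of some markers varied together between arrays. Beyond the slide means given below, the part of animal, slide and normalization in this was not tested. Cd79b, for example, was -2.62 on control replicate 4 and -4.08 on control replicate 5, at Cy5 spot signals of 116 and 120.5. Over the 15 arrays other than control replicate 2 and 50 mg/kg replicate 13, 9 of 45 pairs were correlated after Benjamini-Hochberg adjustment over the 45, all of them positively (two-sided permutation tests that took no account of slide). With slide means subtracted the r of these 9 pairs ran from 0.287 to 0.896, and it fell most for Cd79b and Cd22 (0.658 before and 0.287 after) and for Cd79b and Cd3e (0.718 before and 0.315 after). Cd79b and Ms4a1 had Pearson's r = 0.905 (permutation p = 1e-05, the smallest these permutations give, adjusted p = 0.00045) and Spearman's rho = 0.889 (permutation p = 6e-05), and r was 0.874 without the 2 farthest arrays. Subtracting group means left r at 0.895 and subtracting slide means at 0.816, and it was 0.863 over the 6 arrays of slide 2. These 2 genes thus ranked the 15 arrays alike although Ms4a1 was near background on most of them.

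Cd3g and Lck had r = 0.884 (permutation p = 5e-05, adjusted p = 0.00075) and rho = 0.864 (permutation p = 8e-05), with r = 0.821 without the 2 farthest arrays, 0.834 with group means subtracted, 0.844 with slide means subtracted and 0.902 over the 6 arrays of slide 2. Cd3d and Cd2 had r = 0.863 (permutation p = 4e-05, adjusted p = 0.00075) and rho = 0.825 (permutation p = 0.00028), with r = 0.752 without the 2 farthest, 0.684 with group means subtracted, 0.896 with slide means subtracted and 0.855 on slide 2. Cd3e was correlated with Ms4a1, Cd79b and Cd4 over these arrays: its r was 0.803 with Ms4a1 (rho = 0.771, permutation p = 0.00045 and 0.00132), 0.718 with Cd79b (rho = 0.571, permutation p = 0.00113 and 0.0288) and 0.671 with Cd4 (rho = 0.654, permutation p = 0.00617 and 0.00971). With slide means subtracted these r were 0.527, 0.315 and 0.435, and without the 2 farthest arrays 0.712, 0.592 and 0.484. With Cd3d its r was 0.081 (rho = 0.043, permutation p = 0.775 and 0.884), and 0.200 without the 2 farthest. Cr2 was correlated with none of the other 9 over these arrays, where its r ran from -0.49 to 0.25.

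Across all 17 arrays 19 of the 45 pairs had r over 0.7, against 5 over the 15 arrays. Cd79b and Cr2, at r = 0.960 over 17 arrays, had r = -0.013 over the 15, so that relation rests on the 2 arrays that stood apart. In 12 pairs r was positive over 17 arrays and negative once the 2 arrays farthest on the first gene were left out. Those were not always the 2 arrays that stood apart: for Cd22 and Cd2 they were 50 mg/kg replicates 13 and 14.

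**Figure D4:**
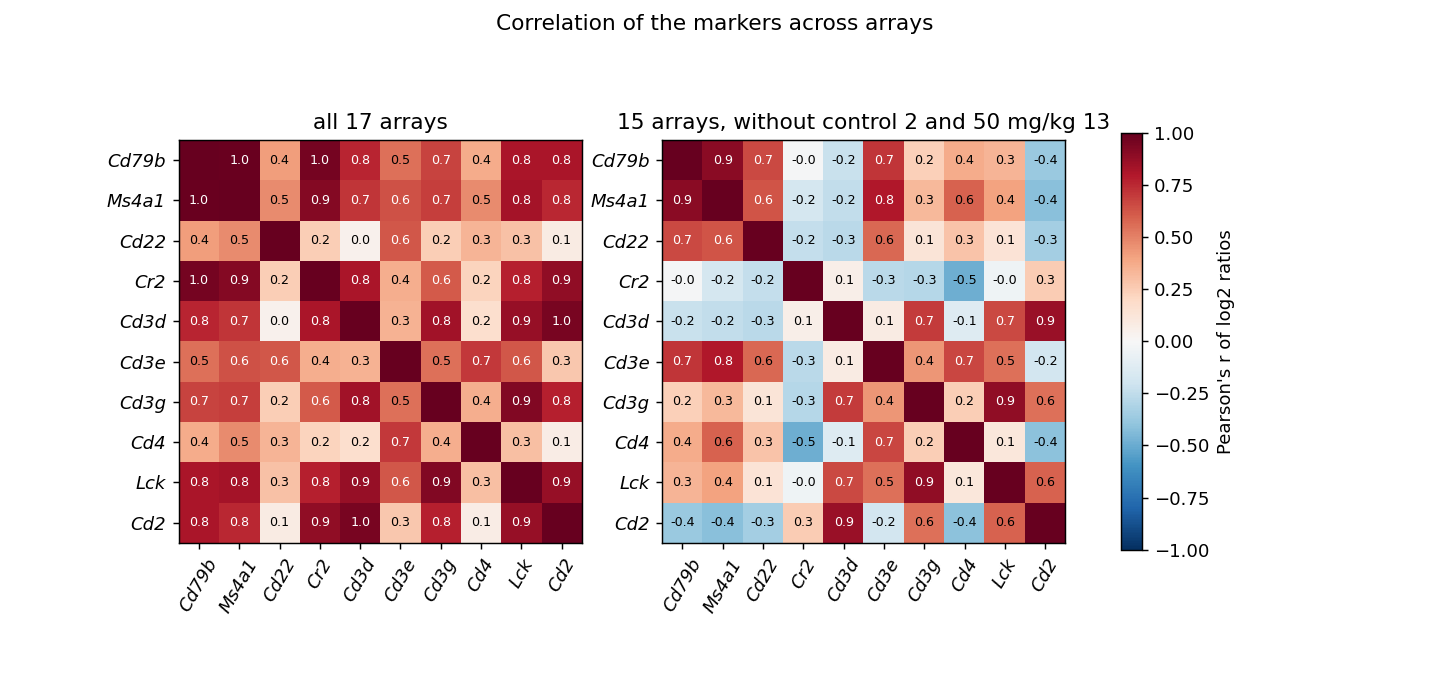
Pearson's r between the log2 ratios of each pair of markers, over all 17 arrays (left) and over 15 arrays without control replicate 2 and 50 mg/kg replicate 13 (right); colour runs from -1 to 1. Cd79b and Cr2 go with each other at r = 0.960 on the left and -0.013 on the right, while Cd3d and Cd2 stay together at 0.952 and 0.863.

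By likeness across all 17 arrays, the 6 genes outside the markers and the lists written with them that followed the mean of the 4 B cell markers most closely were Gimap1, a GTPase of lymphocytes (r = 0.971), Marco (r = 0.962), Zdhhc22 (r = 0.961), Tent5c (r = 0.957), Ets1, a transcription factor of lymphocytes (r = 0.954), and Slc4a1 (r = 0.952); Marco and Slc4a1 are in the 2 lists written later. For the mean of the 6 T cell markers they were Itgb7, an integrin chain of gut-homing lymphocytes (r = 0.966), Lcp1, the leukocyte actin bundler L-plastin (r = 0.955), Cyp4f18 (r = 0.955), Hcls1 (r = 0.948), Batf, a transcription factor of activated lymphocytes (r = 0.947), and Wdfy4 (r = 0.944). Without control replicate 2 these 12 correlations were 0.830 to 0.932, chosen as the closest among all genes, so they carry no test. Control replicate 2 was the highest array for Ets1, at 1.22, while the others lay between -1.51 and -0.56. It was the highest for Itgb7 too, at -0.78, while the others lay between -3.36 and -1.70.

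The other genes of lymphocytes came from lists written beside the markers. At 75 mg/kg none of 6 B cell, 9 plasma cell, 11 T cell, 4 NK and cytotoxic, 10 lymphoid tissue and 11 pan-leukocyte genes passed with all arrays, against 1.1% of all genes. The extremes of these lists at 75 mg/kg were Cd72, a B cell coreceptor, at 0.14 ± 0.28, and Pou2af1, a B cell coactivator, at -0.68 ± 0.51; Prdm1, the plasma cell regulator, at 0.25 ± 0.20, and Jchain, the joining chain of secreted antibody, at -0.67 ± 0.53; and Cd5 at 0.25 ± 0.14 and Thy1 at -0.22 ± 0.16 for T cells. Il2rb, a receptor chain for interleukins of NK and T cells, was 0.22 ± 0.24 and Gzma, a granzyme, -0.27 ± 0.54. Madcam1, an adhesion molecule of gut vessels, was 0.29 ± 0.36 and Cxcl13 -1.09 ± 0.67, and Cd52 was 0.47 ± 0.63 and Rac2 -0.27 ± 0.45 in the pan-leukocyte list. The median change of the B cell list was -0.18, of the T cell list -0.11 and of the pan-leukocyte list -0.10.

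Within the 8 lists of lymphocyte and pan-leukocyte genes, the genes called with all arrays were activation receptors and chemokines. Of the 6 genes for regulatory and activated T cells, 2 were higher at 75 mg/kg, where 1.1% of all genes were called. Icos, a costimulatory receptor of activated T cells, was 0.33, 0.85, 0.52 and 0.84 at 75 mg/kg, against 0.00, 0.45, -0.16, -0.27 and 0.07 in controls 1 to 5, a rise of 0.62 ± 0.13 (limma, adjusted p = 0.0306). Tnfrsf18, the receptor GITR, was -0.50, -0.80, -1.21 and -0.35 at 75 mg/kg, against -1.33, -1.30, -1.51, -1.49 and -1.84 in controls 1 to 5, a rise of 0.78 ± 0.15 (adjusted p = 0.0163). All Tnfrsf18 values at 75 mg/kg lay above all controls, and the Icos groups overlapped through control replicate 2. The share of all genes above the controls at 75 mg/kg was counted only without control replicate 2, at 3.38%. Foxp3, the regulatory T cell factor, was 0.04 ± 0.11 and Pdcd1 -0.11 ± 0.25.

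Of the 7 genes of lymphocyte-attracting chemokines and their receptors, 3 were higher at 75 mg/kg (against the same 1.1%): Cxcl10 by 2.14 ± 0.41, Cxcl9 by 1.35 ± 0.26 and Cxcl16 by 0.72 ± 0.17 (adjusted p = 0.0146, 0.0141 and 0.0491 by limma). The first pair are interferon-induced ligands of the receptor CXCR3, and CXCL16 is the ligand of CXCR6. The receptors themselves, carried by T cells, were 0.18 ± 0.20 for Cxcr3 and 0.68 ± 0.25 for Cxcr6 with all arrays (adjusted p = 0.831 and 0.325). Without control replicate 2 they were 0.42 ± 0.11 and 0.96 ± 0.16 (adjusted p = 0.0719 and 0.00571), and along the trend both then rose (adjusted p = 0.019 and 0.00107). Leaving out single arrays ended some of these calls: the call of Icos at 75 mg/kg was lost in 5 of 17 such fits (highest adjusted p = 0.13, without 75 mg/kg replicate 18), and those of Tnfrsf18, Cxcl9 and Cxcl10 in 2 each (highest adjusted p = 0.0759, 0.0667 and 0.0682, without 75 mg/kg replicates 17, 17 and 18). That of Cxcl16 was lost in 14 (highest adjusted p = 0.164, without 75 mg/kg replicate 20). The dose trends of Icos, Tnfrsf18, Cxcl9 and Cxcl10 passed in all 17 fits by limma, and that of Cxcl16 in 12.

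Without control replicate 2, further leukocyte genes passed. Cd52 was higher at 75 mg/kg by 1.24 ± 0.29 (adjusted p = 0.0440), and along the trend Cd52, Il2rb, Ccr7 and Arhgap15 rose (adjusted p = 0.00979, 0.0476, 0.0183 and 0.0382), while with all arrays the same 4 trends had an adjusted p of 0.711 to 0.957. Of the 11 pan-leukocyte genes 9 then had a positive change at 75 mg/kg, with a median of 0.30, against a median of 0.00 over all genes. Of the 6 other B cell genes 3 were positive and 3 negative, with a median of -0.05, and none passed.

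Some markers of myeloid cells were also higher at 75 mg/kg. Beside 1.1% of all genes called, 2 of 15 macrophage and dendritic cell genes tested were higher at 75 mg/kg with all arrays (median change 0.44). Among them was Cd207, which encodes langerin of Langerhans cells and is named after its values were seen, by 0.98 ± 0.22 (adjusted p = 0.0432 by limma). With control replicate 2 left out, 13 of the 15 had a positive change at 75 mg/kg with a median of 0.65, against 48.7% of all genes. Of the 15, 3 passed there, Itgax and Adgre1 among them, and 5 passed in the trend. Over all genes 1.35% and 1.88% then passed. The summed linear ratio of this list was 68.3 on control replicate 2 and 28.0 to 42.6 on the other controls, and it was 32.7 to 52.5, 46.5 to 66.0 and 41.0 to 61.9 at 25, 50 and 75 mg/kg. Of 7 neutrophil genes, none passed with all arrays and S100a9, a calprotectin chain, passed at 75 mg/kg without control replicate 2 (2.88 ± 0.49, adjusted p = 0.00606). The part of these cells in the lymphocyte values was not tested.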

How the data were processed

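Per the labels, Cy5 held forestomach RNA and Cy3 the cell line reference on all arrays, with no dye swap. The authors deposited scanner tables of spot intensity, for which the file headers name Feature Extraction 10.7.3.1, and a series table of log2 values of unstated scale (compared with the scanner values, it followed log2 of Cy5 over Cy3, loess-normalized with no background correction) and which served as an alternative, as did the scanner's processed signals. From the deposited median signals, background was corrected with normexp (offset 50), arrays were normalized by loess, and spots of a probe were averaged. Probes that cleared background in Cy5 on 4 or more arrays were kept (27570), and the brightest stood for its gene. All 17 arrays entered 1 limma 3.58.1 fit (R 4.3.3, two-sided) of 4 group means; the trend was a slope per 25 mg/kg. P-values were adjusted over 21380 genes, with 0.05 as the threshold. The code was tested on simulated data. One gene of the macrophage and dendritic cell list is not reported here by name.

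The plan named mean signals, and the tables used here held medians, which took their place. The members and lists were chosen with earlier results of these data known. A written rule named genes outside the members: those of the 8 leukocyte lists that passed, the extremes of each list at 75 mg/kg, and the 6 closest to each marker mean. Foxp3, Ptprc, Cd207, Itgax, Adgre1, S100a9 and Adipoq were named outside that rule. The 2 later lists, Cr2's promoter and the fits without control replicate 2 in combination with other settings were added after the data were seen. Labels call the samples of a group biological replicates, 1 animal per array. Slide was taken as a batch, and the number of arrays limits the precision.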

Additional observations from a re-analysis of the deposited data

Results flagged for a closer look

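In 10 of the 40 sets formed by a marker and a group, 1 array lay far from the rest of its group by Dixon's criterion, which chance meets in about 1 set in 20. Control replicate 2 was that array for 5 genes, at 2.10 for Cd79b, 2.13 for Ms4a1, 5.17 for Cr2, 2.23 for Cd3d and 3.1 for Cd2. Cd79b on 50 mg/kg replicate 13, at -0.82, was high in its group. On 75 mg/kg replicate 19, Cd3d at -0.08 and Cd2 at 0.07 were low in their group. The last pair were low values, -1.06 for Cd3e on control replicate 5 and -2.13 for Cd3g on 50 mg/kg replicate 15. Both arrays lay on slide 3, where Cd3e was -1.21, -1.12, -1.06 and -0.98, below every array of the other slides. For Lck no group held such an array, although control replicate 2 was its highest.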

How the results depend on the processing

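No paired analysis was possible because the groups share no replicate numbers. In 1250 values of a marker in a comparison under 32 alternatives, 95 had a sign other than with all arrays, and 15 passed where the original did not. With all 17 arrays, no marker was called under any alternative in background, normalization, filter, probe choice, channel, series table or slide. Leaving out 1 array at a time gave 0 calls at 75 mg/kg and 0 to 2 in the trend, the 2 (Cd2 and Cd3d) without control replicate 2. The following settings were added after the data were seen, all without control replicate 2. With 50 mg/kg replicate 13 also out, with slide as a block, with processed signals and with Cy5 alone, 1, 1, 2 and 1 markers were called at 75 mg/kg, and 2, 2, 3 and 1 in the trend. Of all genes, 286, 549, 306 and 260 were called at 75 mg/kg under these settings, and 410, 758, 477 and 385 in the trend. Centred on array medians, 0 and 0 markers were called, beside 156 and 217 of all genes. Without the 2 arrays farthest on the first gene, 6 pairs had r over 0.7 (19 with all), and 5 over the 15 arrays. That also turned r to -0.0126 for Cd79b and Cr2, -0.178 for Ms4a1 and Cr2, -0.225 for Cd79b and Cd3d, -0.246 for Ms4a1 and Cd3d, -0.284 for Cr2 and Cd3g, -0.0445 for Cr2 and Lck, -0.370 for Cd79b and Cd2, and -0.417 for Ms4a1 and Cd2.

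Of all genes, 3, 10, 236 and 288 were called at 25, 50 and 75 mg/kg and in the trend; these became 0, 1, 145 and 172 with arrays centred on their medians and 1, 28, 424 and 549 with slide as a block, and 155 at 75 mg/kg with the 2 compared groups alone. Unfiltered probes gave 1 and 6 at 25 and 50 mg/kg, Cy5 alone 1 and 3, processed signals 1 at 25 mg/kg, and probe means 6 at 50 mg/kg. Leaving out 1 array gave 0 to 2, 2 to 32, 119 to 289 and 192 to 403. Markers whose main probe was not well above background on every control array (Ms4a1, Cr2, Cd3d, Cd3g and Cd2) are limited by signal.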
